A study of Mus musculus with 9 samples.

Results

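The 39 genes described here belong to the interferon response and to antigen presentation on MHC class I, and they were taken by name from the 55416 genes in the deposited count table of an RNA sequencing experiment on phosphate-treated bone cells. Each of the 39 names was found once, and 32 of them passed the filter on low counts (a minimum of 10 in filterByExpr of edgeR), as did 13679 genes in all. The cells were MC3T3-E1, a wild-type murine pre-osteoblast line from calvarial bone, kept in osteogenic medium with 10% serum, 10 mM β-glycerophosphate (BGP), 50 µg/ml ascorbic acid and 0.1 µM dexamethasone. The study's methods leave BGP out of this medium in the last week, whereas the sample labels give it until treatment. At day 27 the cultures received 4 mM BGP as organic phosphate, 4 mM NaHPO4 (a mixture of the disodium and monosodium salts) as inorganic phosphate, or no added phosphate (Control), for 16 h. By the study's methods the basal medium itself held sodium phosphate in all conditions, Control included. The study also states that alkaline phosphatase rapidly turns BGP in the medium into inorganic phosphate. Each condition had 3 libraries. The labels do not say whether the replicates of a condition were separate cultures. The p-values rest on the spread between libraries, which edgeR estimates in part from other genes and which may be technical. A single cell line in culture lacks the immune cells that make or answer interferons in bone.

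Interferons are secreted proteins that warn cells of infection. Type I and type II interferons bind surface receptors, JAK kinases then phosphorylate STAT proteins, and complexes that hold STAT2 and IRF9 enter the nucleus and bind interferon-stimulated response elements (ISRE), while other STAT dimers bind gamma-activated sites (GAS). Their targets include RNA sensors, antiviral enzymes, the ubiquitin-like modifier ISG15, and the proteasome subunits, peptide transporters and heavy chains that load peptides onto MHC class I. Most nucleated cells, osteoblasts among them, show MHC class I at their surface without any interferon. The question put to the 39 genes was whether organic or inorganic phosphate moved them, and whether the 2 phosphates differed.

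Promoter sequence was compared first. The rule that chose the genes did not use sequence, but it chose genes known to respond to interferon. The share of members with a motif is therefore not independent of that choice. In RefSeq's promoter table, which covers 250 bases before to 50 bases after a gene's start, 30 of the 39 members had an entry. The core letters of the ISRE, GAAANNGAA, searched on both strands, were found in 17 of these 30 (56.7%), compared to 9.76% of the 27025 genes in the table and 8.56% of its windows. Among the 6 MHC class I members with an entry only *B2m* held it, against 16 of the other 24. The core letters of the GAS, TTCNNNGAA, were found in 7 of 30 (23.3%), compared to 9.55% of all genes and 8.30% of windows. *Oas1a*, *Bst2* and *Gbp7* held both, and in *Bst2* the 2 kinds of match share letters. These are matches of letters and not measured binding sites.

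The stretches below show the matches in capitals, 5′ to 3′ on the gene's own strand, with 10 bases on either side where the start allows. The first 4 belong to the members with the most counts among those whose match lies wholly before the start. They are *B2m* (chr2:121978019-121978047, plus strand), *Trim25* (chr11:88890210-88890228, plus), *Stat2* (chr10:128106136-128106164, plus) and *Ifih1* (chr2:62476693-62476721, minus). Positions are in GRCm39, starts are RefSeq's, and for *B2m*, *Trim25* and *Gbp2* the GENCODE gene begins further upstream, so that these stretches lie inside it.
B2m: ataagaacatGAAACTGAAaatgggaaag
Trim25: gcccctcctgTTCAGTTTC
Stat2: gcaccctggtTTCAGTTTCctttccctag
Ifih1: agaattcgcgTTCCCTTTCctgtttctca

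The remaining stretches were chosen after the values were seen, because the text returns to these genes. *Gbp2* (chr3:142326356-142326384, plus) and *Irf1* (chr11:53660741-53660769, plus) were each past the test in 1 comparison, and *Irf1* shows a GAS core in place of an ISRE core. *Isg15* (chr4:156285323-156285363, minus), *Ifit1* (chr19:34618170-34618223, plus) and *Ifit3* (chr19:34560764-34560845, plus) hold 3 ISRE cores each. The same 82 letters as in *Ifit3* stand before its neighbour *Ifit3b* (chr19:34585160-34585241, plus), within 169 identical bases of the promoters of both genes. Both genes are counted among the members with an ISRE core.
Gbp2: ctcttttagtTTCACTTTCactgtcttaa
Irf1: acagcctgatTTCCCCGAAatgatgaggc
Isg15: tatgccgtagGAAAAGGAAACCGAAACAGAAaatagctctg
Ifit1: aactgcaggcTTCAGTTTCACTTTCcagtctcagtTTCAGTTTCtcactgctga
Ifit3: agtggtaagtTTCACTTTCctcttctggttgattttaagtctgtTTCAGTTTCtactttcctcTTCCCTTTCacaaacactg

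The libraries held between 21390839 and 28234404 counts. Expression is given as TMM-normalized CPM, that is counts scaled to a common library size, and levels of different genes are compared as CPM per kilobase of exon. All 13 osteoblast and osteocyte markers were counted and tested, and together they made up from 104911 to 119166 CPM of each library. *Col1a1* and *Col1a2* made up most of this sum (means of 40682 and 53822 CPM), while *Sost*, an osteocyte marker, had from 0.351 to 1.57 CPM. Of these 13, 3 were higher with BGP than in Control, compared to 1.86% of all tested genes. With NaHPO4 2 were higher and 6 lower than in Control, compared to 3.43% and 3.95% of all genes. Between the phosphates 7 were higher and 1 lower with BGP, compared to 3.33% and 2.05%, and their part in the results below was not tested. Of 9 macrophage markers, *Itgam*, *Tyrobp* and *Aif1* had 0 counts in every library, and the summed level of the 9 ranged from 29.2 to 32.1 CPM in Control, from 29.6 to 33.1 CPM with BGP and from 23.8 to 32.5 CPM with NaHPO4. *Lyz2*, with from 16.6 to 25.0 CPM, made up most of this sum, and *Cd14* had from 4.05 to 6.75 CPM. *Cd68* and *Csf1r* had means of 0.919 and 0.902 CPM, *Adgre1* had 20 counts in all and *Ptprc* 1. Of 6 lymphocyte markers 5 had 0 counts, and the list held 2 counts in all. Of 4 endothelial markers *Kdr* had 0 counts, and the list held 23 counts in all. Of the 9 macrophage markers only 4 were tested (*Cd68*, *Csf1r*, *Cd14* and *Lyz2*), and none of these passed in any comparison. One Control library, replicate 2, was high in many of the members, and for several of them values without it are given too.

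The interferon and antigen presentation genes spanned a wide range of levels in these cells. The genes of the MHC class I molecule itself stood at the top. *B2m*, the light chain, had 237 CPM per kilobase, *H2-D1* 177 and *H2-K1* 73.9, which placed them at the 99.5th, 99.2nd and 97.8th percentile of all tested genes per length, and the library ranges of the 3 did not overlap. *Tap2*, a subunit of the peptide transporter, followed with 13.4 CPM per kilobase and *Ifi27*, a mitochondrial interferon-induced protein, with 10.1. *Trim25*, *Tap1*, *Ifi35*, *Irf1*, *Parp9*, *Stat2* and *Psmb8* lay between 4.46 and 6.69 CPM per kilobase, and their ranges over the 9 libraries overlapped with those of their neighbours in this order. The next 13 genes, from *Isg15* to *Gbp7*, lay between 0.562 and 3.89 CPM per kilobase. The lowest of the tested members followed. *Oas2*, *Ifit1*, *Gbp3*, *Ifit3*, *Oasl2*, *Oas3* and *Ifi44* had between 0.0698 and 0.253 CPM per kilobase, below the 9th percentile of tested genes, and their library ranges overlapped as well. *H2-D1* shared 12.6% and *H2-K1* 11.3% of their 50-base transcript windows with other genes, foremost with each other, so that their split is uncertain. *Ifit3* shared 31.7% of its windows with other genes, foremost *Ifit3b*.

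**Figure D1:**
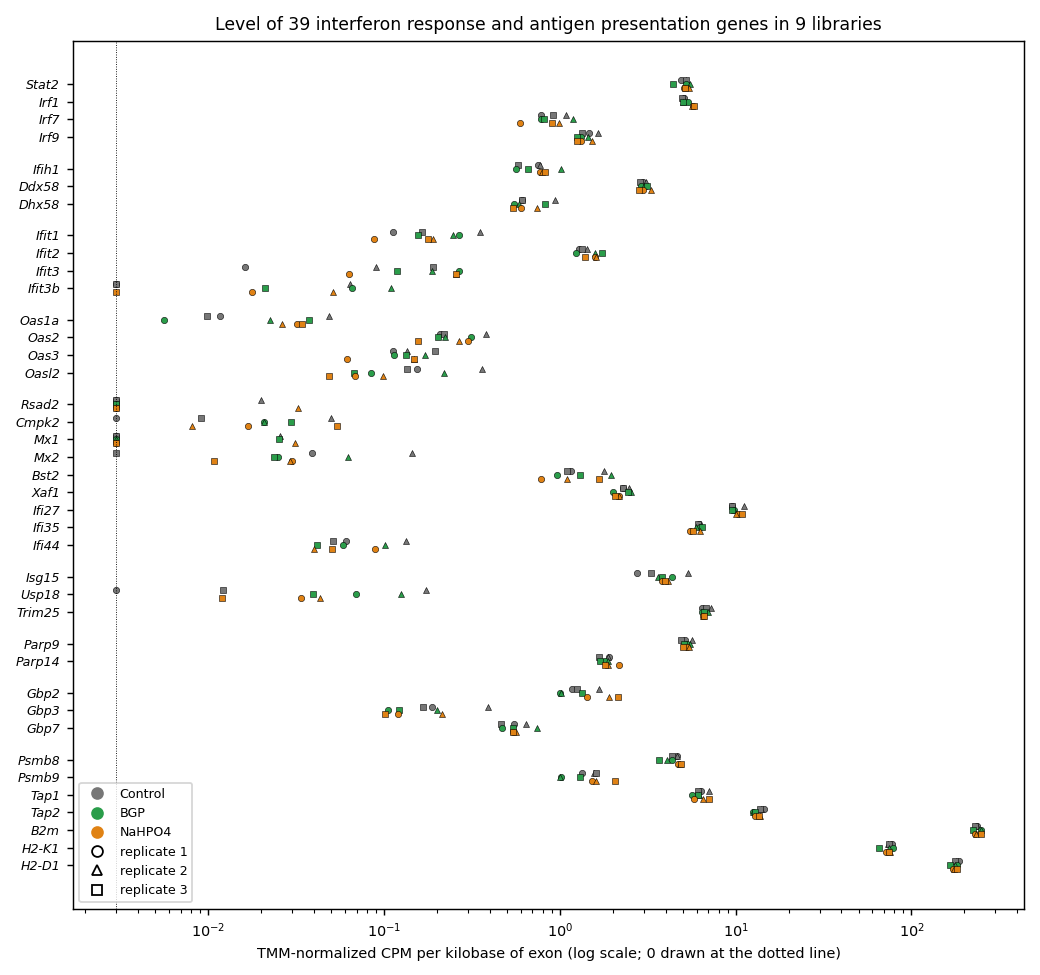
Level of each of the 39 members in the 9 libraries, as CPM per kilobase of exon on a log scale, with condition by colour and replicate by shape, and a library at 0 drawn on the dotted line. The genes are ordered by role, and *B2m* (224.5 to 249 CPM per kilobase), *H2-D1* and *H2-K1* lie at the right, while *Rsad2*, *Mx1* and other untested members reach 0 in some libraries.

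The 7 members that failed the count filter are genes that rise strongly in infected cells. *Rsad2* encodes viperin, *Cmpk2* a mitochondrial nucleotide kinase, *Mx1* and *Mx2* dynamin-like GTPases, *Oas1a* a sensor of double-stranded RNA, *Usp18* the protease that removes ISG15, and *Ifit3b* a copy of *Ifit3*. Together they had 166 counts over the 9 libraries. *Rsad2* was counted 2 times in Control replicate 2 and 4 times in NaHPO4 replicate 2, and 0 times in each of the other libraries. *Mx1* was counted 2 times in Control replicate 2, 2 times in BGP replicate 3 and 3 times in NaHPO4 replicate 2, and was at 0 elsewhere. *Cmpk2* had 0, 5 and 1 counts in Control, 2, 2 and 3 with BGP, and 2, 1 and 6 with NaHPO4. The 3 genes showed no group of libraries that stood apart. *Mx2* had 3, 12 and 0 counts in Control, 2, 5 and 2 with BGP, and 3, 3 and 1 with NaHPO4. *Usp18* had 0, 13 and 1 counts in Control, 5, 9 and 3 with BGP, and 3, 4 and 1 with NaHPO4. For both, 1 Control library was higher than all others. *Oas1a* had 2, 9 and 2 counts in Control, 1, 4 and 7 with BGP, and 7, 6 and 7 with NaHPO4. *Ifit3b* had 0, 3 and 0 counts in Control, 3, 5 and 1 with BGP, and 1, 3 and 0 with NaHPO4. A library with 0 counts allows a level of up to 3 counts, which is from 0.106 to 0.140 CPM depending on the library and covers counting error only.

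With BGP, 0 of the 32 tested members passed an FDR of 0.05 compared to Control, in either direction, and 0 were DEGs (FDR below 0.05 and absolute log2FC above 0.5) by edgeR's quasi-likelihood test. Among all tested genes 1.86% were higher, 0.665% were lower and 0.556% were DEGs in this comparison. The median log2FC of the members was -0.03 against -0.0043 for all tested genes and changed sign without Control replicate 2 (0.0254). The 95% interval of 21 of the 32 members lay wholly between -0.5 and 0.5, compared to 76.5% of all tested genes. At an unadjusted p under 0.05, 3 members were lower and 0 higher, and these were *Tap2*, *Psmb9* and *Psmb8* of the MHC class I pathway, compared to 13.4% of all tested genes in either direction. DESeq2 called 0 members in this comparison and limma 1, *Tap2*. The 3 BGP libraries lay apart from the 3 Control libraries in 2 members, *Psmb9* and *Tap2*, both lower, while 18.5% of all tested genes were apart in either direction. The smallest adjusted p was 0.0564, for *Tap2*. In bulk RNA, fewer cells of a type and less RNA per cell cannot be told apart.

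With NaHPO4, 1 member was higher and 1 was lower than in Control at an FDR of 0.05. *Irf1*, a transcription factor of the interferon response, was higher by a small amount (log2FC 0.20), and *Oasl2*, an oligoadenylate synthetase-like protein, was lower (log2FC -1.56) and was the only DEG among the members. Among all tested genes 3.43% were higher, 3.95% were lower and 0.716% were DEGs. The median log2FC of the members was -0.02 against 0.0001 for all tested genes, and the interval of 21 members lay between -0.5 and 0.5. The libraries did not overlap in 5 members, higher in *Irf1* and *Psmb8* and lower in *Oasl2*, *Xaf1* and *Tap2*, against 23.2% of all tested genes.

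Between the phosphates, 2 members were lower with BGP than with NaHPO4 and 0 were higher. They were *Gbp2*, a guanylate-binding GTPase that is a typical target of interferon gamma, and *Psmb9*, a subunit of the immunoproteasome, and both were DEGs. At an unadjusted p under 0.05, 4 members were lower and 0 higher, compared to 16.9% of all tested genes in either direction, and DESeq2 and limma also called 0 members higher. Among all tested genes 3.33% were higher with BGP, 2.05% were lower and 0.585% were DEGs. The median log2FC of the members was -0.01 against -0.0018 for all tested genes, and 20 intervals lay between -0.5 and 0.5. The libraries did not overlap in 6 members, all lower with BGP, which were *Irf1*, *Ifi27*, *Gbp2*, *Psmb8*, *Psmb9* and *Tap2*, against 21.2% of all tested genes. The same BGP libraries enter this comparison and that with Control, and the same NaHPO4 libraries this one and theirs, so the comparisons are not independent.

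**Figure D2:**
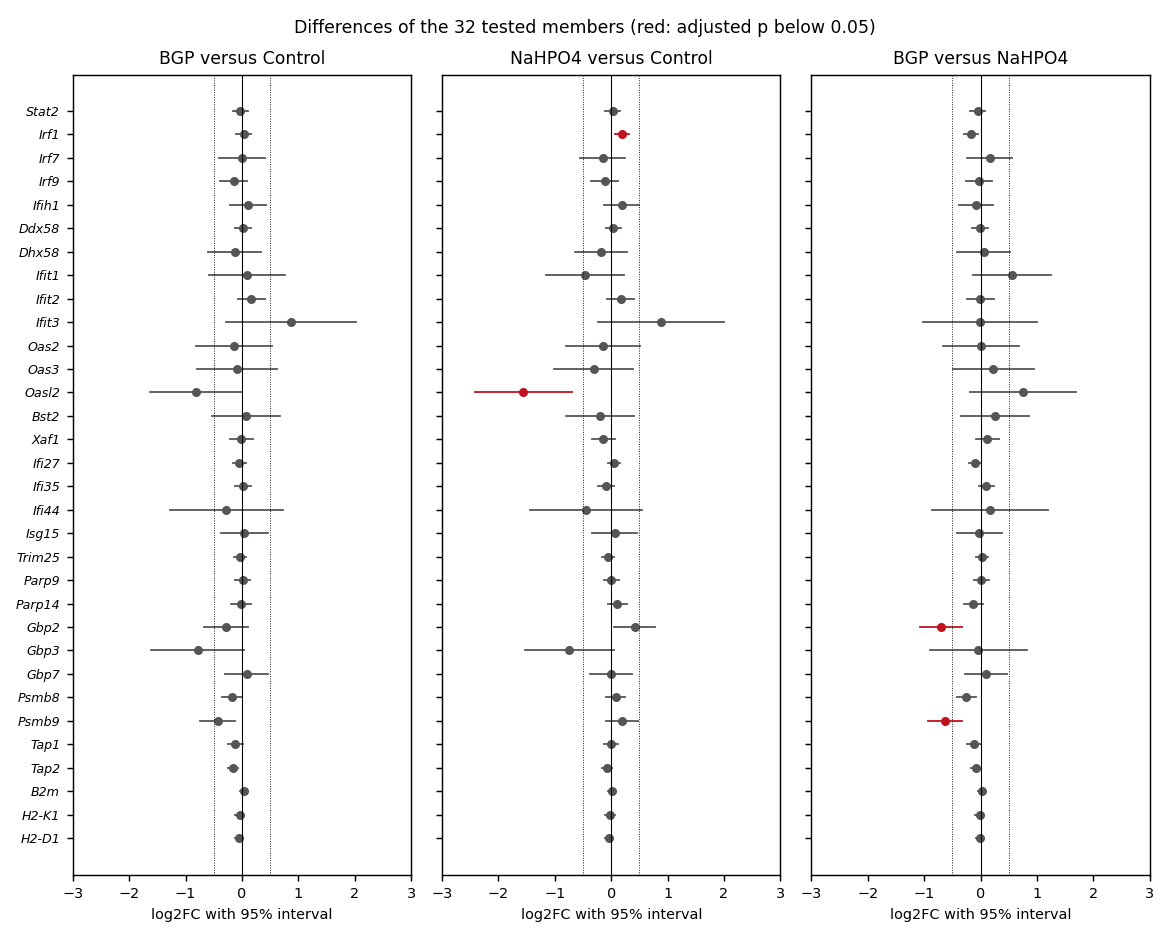
The log2FC of the 32 tested members in the 3 comparisons, each with its 95% interval, in red where the adjusted p was below 0.05, and with dotted lines at -0.5 and 0.5. *Irf1* and *Oasl2* are red for NaHPO4 versus Control, *Gbp2* and *Psmb9* for BGP versus NaHPO4, and the widest intervals belong to weakly expressed genes such as *Ifit3*, *Ifi44* and *Oasl2*.

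The precision followed the level of the genes. For the 15 members with a mean of at least 10 CPM, every 95% interval lay between -0.5 and 0.5 in each of the 3 comparisons, with standard errors from 0.0347 to 0.1003. The absolute log2FC of these 15 reached 0.17 for BGP versus Control, 0.20 for NaHPO4 versus Control and 0.25 for BGP versus NaHPO4. For the 17 tested members below 10 CPM the standard errors reached 0.57, and 6, 6 and 5 of the intervals lay within these limits. For the rest the interval reached past 0.5 in at least 1 direction.

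Among the transcription factors, *Irf1* alone passed the test. Located at chr11:53660812-53669200 (plus strand, GRCm39), it is itself an early target of interferon signalling. Its CPM was 23.8, 23.4 and 23.3 in Control, 25.0, 23.5 and 23.5 with BGP, and 26.9, 26.5 and 27.3 with NaHPO4. All 3 NaHPO4 libraries lay above the other 6. The difference between NaHPO4 and Control was 1.15-fold (log2FC 0.20, standard error 0.0624, adjusted p = 0.0482). It is a borderline call, which was lost in 13 of 17 alternatives, among them each fit that left out a library (adjusted p from 0.0509 to 0.1261). BGP and NaHPO4 were not told apart for *Irf1* (log2FC -0.17, adjusted p = 0.133). Its exons overlap opposite-strand genes by 2491 bases, summed gene by gene, so that a base shared with several genes counts for each. *Stat2*, which carries the type I interferon signal to the nucleus, had from 30.8 to 33.1 CPM in Control, from 27.6 to 34.6 with BGP and from 31.9 to 34.3 with NaHPO4, with log2FC of -0.03 and 0.02 against Control. *Irf9*, which gives the complex its DNA contact, had from 7.76 to 9.62 CPM in Control and log2FC of -0.15 with BGP and -0.12 with NaHPO4. *Irf7*, the amplifier of type I interferon transcription, had 2.95, 4.09 and 3.46 CPM in Control, 2.98, 4.49 and 3.10 with BGP, and 2.26, 3.76 and 3.44 with NaHPO4. The conditions overlapped in all 3 of these genes, and the smallest adjusted p among them over the comparisons with Control was 0.635.

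The cytoplasmic RNA sensors did not pass the test in any comparison. *Ddx58*, named *Rigi* in current annotation, had from 23.8 to 28.1 CPM over the 9 libraries. *Ifih1*, which encodes MDA5, had 6.73, 6.96 and 5.20 CPM in Control, 5.10, 9.16 and 5.97 with BGP, and 6.92, 7.09 and 7.38 with NaHPO4. The highest *Ifih1* value was in BGP replicate 2, and the conditions overlapped. *Dhx58*, the regulator LGP2, had from 1.84 to 3.18 CPM.

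The IFIT genes, whose proteins bind foreign RNA ends, were weakly expressed, and 0 of the 3 tested members passed. *Ifit1* had 0.841, 2.61 and 1.22 CPM in Control, 1.99, 1.84 and 1.16 with BGP, and 0.655, 1.40 and 1.33 with NaHPO4. *Ifit3* had 0.0468, 0.261 and 0.551 CPM in Control, 0.767, 0.539 and 0.344 with BGP, and 0.182, 0.737 and 0.742 with NaHPO4. For both genes the Control libraries overlapped with those of either treatment. The log2FC of *Ifit3* was 0.87 with BGP (95% interval -0.29 to 2.02, adjusted p = 0.55) and 0.88 with NaHPO4 (-0.24 to 2.00, adjusted p = 0.403). *Ifit1* had log2FC of 0.09 with BGP and -0.47 with NaHPO4, and without Control replicate 2 these were 0.67 and 0.12. *Ifit2*, the most abundant of the family, had from 7.26 to 10.3 CPM and was 0.17 higher in log2FC with either phosphate without passing (adjusted p = 0.595 and 0.467).

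The OAS genes encode enzymes or relatives of enzymes that turn double-stranded RNA into a signal for RNA decay. *Oasl2* is found at chr5:115034997-115050295 (plus strand). Its raw counts were 21, 53 and 22 in Control, 12, 31 and 10 with BGP, and 12, 18 and 8 with NaHPO4. Scaled by library size this was 0.982, 2.31 and 0.866 CPM in Control, 0.541, 1.39 and 0.430 with BGP, and 0.437, 0.632 and 0.312 with NaHPO4. Every NaHPO4 library lay below every Control library, while Control replicate 2 was far above its companions, and the BGP libraries overlapped with both conditions. *Oasl2* was 2.95-fold lower with NaHPO4 than in Control (log2FC -1.56 ± 0.424 SE, edgeR adjusted p = 0.0159). Without Control replicate 2 the log2FC was -0.98 and the call was lost (adjusted p = 0.256). It was also lost without NaHPO4 replicate 1 (adjusted p = 0.0555) or NaHPO4 replicate 3 (adjusted p = 0.0876). The call held in 13 of the 16 alternatives that tested *Oasl2*. In each condition replicate 2 had the highest *Oasl2* value. The main fit did not pair libraries by number, and an edgeR fit that blocked on this number gave a log2FC of -1.55 (adjusted p = 0.00366). Over all tested genes, same-numbered libraries were hardly correlated (-0.0092 to 0.0426). The block fit uses the same *Oasl2* values and is not independent support for the call. With BGP the log2FC of *Oasl2* was -0.81 (adjusted p = 0.379) and -0.23 without Control replicate 2, and the 2 phosphates did not differ by test (log2FC 0.75, 95% interval -0.19 to 1.69, adjusted p = 0.445). *Oas2* had from 0.703 to 1.70 CPM and *Oas3* from 0.437 to 1.38 CPM, with the conditions overlapping.

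Of the other antiviral effectors, 5 were tested and 0 passed in any comparison. *Bst2*, or tetherin, which holds budding virus at the cell surface, had 1.40, 2.18 and 1.34 CPM in Control, 1.17, 2.38 and 1.59 with BGP, and 0.946, 1.33 and 2.03 with NaHPO4. The conditions overlapped fully. *Ifi27* had from 42.4 to 49.8 CPM and *Ifi35* from 20.9 to 24.6 CPM over the libraries, with absolute log2FC of at most 0.10 in each comparison. *Xaf1*, an apoptosis-promoting protein, had 10.9, 11.8 and 10.9 CPM in Control and 10.3, 10.3 and 9.84 with NaHPO4, a difference in every library that did not pass (log2FC -0.14, adjusted p = 0.483). *Ifi44* had from 0.246 to 0.827 CPM.

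In the ISG15 system, *Isg15* had 2.15, 4.18 and 2.60 CPM in Control, 3.38, 2.83 and 2.97 with BGP, and 2.99, 3.23 and 3.09 with NaHPO4. The treated libraries all lay between the lowest and the highest Control library. Its log2FC was 0.04 with BGP (adjusted p = 0.959) and 0.06 with NaHPO4 (adjusted p = 0.92), and without Control replicate 2 it was 0.36 and 0.38. *Trim25*, a ubiquitin ligase that activates RIG-I, was among the steadiest members, with from 37.1 to 41.6 CPM and log2FC of -0.03 and -0.06. *Parp9* had from 24.7 to 28.5 CPM and *Parp14* from 15.9 to 20.9 CPM, and neither passed in any comparison.

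Among the guanylate-binding GTPases, which attack vacuoles of intracellular microbes, *Gbp2* differed between the phosphates. It is found at chr3:142326349-142343779 (plus strand). Its CPM was 2.99, 4.31 and 3.23 in Control, 2.57, 2.61 and 3.44 with BGP, and 3.68, 4.88 and 5.51 with NaHPO4. Every BGP library lay below every NaHPO4 library, and Control overlapped with both. *Gbp2* was 1.63-fold lower under BGP than under NaHPO4 (log2FC -0.70 ± 0.183 SE, adjusted p = 0.0147). Against Control the log2FC was -0.29 with BGP (adjusted p = 0.568) and 0.41 with NaHPO4 (adjusted p = 0.169). The call held in 13 of 17 alternatives and was lost without BGP replicate 1 (adjusted p = 0.0888), BGP replicate 2 (0.0867), NaHPO4 replicate 2 (0.0597) or NaHPO4 replicate 3 (0.112). *Gbp3* had 0.795, 1.65 and 0.709 CPM in Control, 0.451, 0.854 and 0.516 with BGP, and 0.510, 0.913 and 0.430 with NaHPO4, and its log2FC of -0.79 and -0.75 against Control did not pass (adjusted p = 0.404 and 0.282). Without Control replicate 2 the log2FC of *Gbp3* was -0.30 and -0.27. *Gbp7* had from 2.80 to 4.45 CPM.

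**Figure D3:**
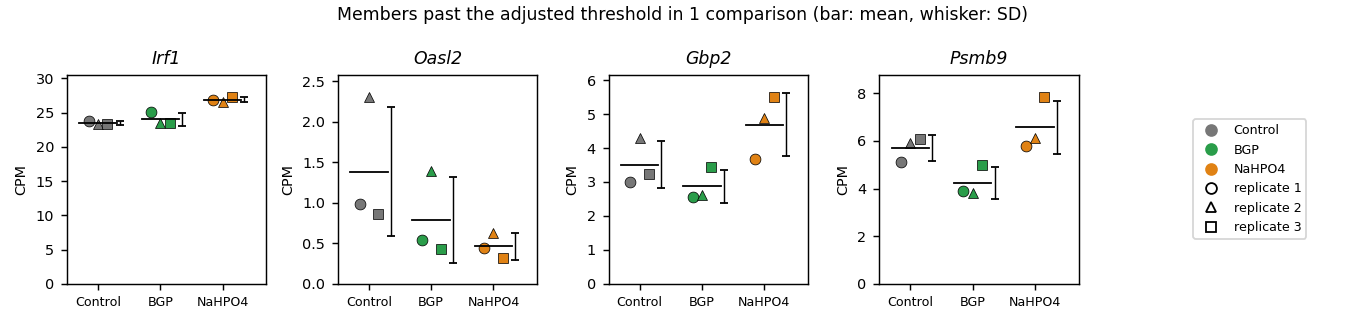
CPM of the 4 members past the adjusted threshold in 1 comparison, per library, with a bar at the mean and a whisker for the SD (n = 3). *Irf1* is higher in the 3 NaHPO4 libraries, and *Gbp2* and *Psmb9* are lower in the BGP than in the NaHPO4 libraries. *Oasl2* has a single high library in Control (2.31 CPM) and a single high library with BGP (1.39 CPM).

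Among the antigen presentation genes, the 3 that encode the MHC class I molecule did not pass in any comparison. *B2m* had 496, 496 and 486 CPM in Control, 521, 524 and 473 with BGP, and 486, 489 and 522 with NaHPO4. *H2-D1* had 555, 537 and 530 CPM in Control, 544, 529 and 494 with BGP, and 512, 523 and 541 with NaHPO4. *H2-K1* had 245, 234 and 237 CPM in Control, 250, 237 and 210 with BGP, and 229, 239 and 238 with NaHPO4. The conditions overlapped in all 3 genes, and their log2FC lay between -0.05 and 0.04 in every comparison. The sum of the 3 genes was 1272 ± 22.6 CPM (SD, n = 3) in Control, 1260 ± 74.2 with BGP and 1259 ± 37.7 with NaHPO4.

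*Psmb9* replaces a catalytic subunit of the standard proteasome and shifts its cleavage toward peptides that fit MHC class I. The gene is found at chr17:34400960-34406738 (minus strand). Its CPM was 5.10, 5.92 and 6.10 in Control, 3.88, 3.82 and 4.99 with BGP, and 5.79, 6.11 and 7.85 with NaHPO4. The BGP libraries lay below all 6 others, while NaHPO4 and Control overlapped. *Psmb9* was 1.55-fold lower under BGP than under NaHPO4 (log2FC -0.63 ± 0.147 SE, adjusted p = 0.0054). Against Control it was 1.35-fold lower with BGP without passing (log2FC -0.43, 95% interval -0.74 to -0.12, adjusted p = 0.147), and NaHPO4 did not pass either (log2FC 0.20, adjusted p = 0.474). The call between the phosphates held in 15 of 17 alternatives and was lost without BGP replicate 2 (adjusted p = 0.0509) or NaHPO4 replicate 3 (adjusted p = 0.079). *Psmb9* and *Tap1* share 743 exon bases on opposite strands. The libraries were stranded, but the sources used here do not say whether strand was used in counting.

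The other members of this pathway had smaller differences in the same comparison. *Psmb8*, a second subunit of the immunoproteasome, had 15.9, 15.8 and 14.9 CPM in Control, 14.9, 13.9 and 12.5 with BGP, and 16.1, 16.5 and 16.6 with NaHPO4. Its NaHPO4 libraries lay above all others. Its log2FC was -0.25 for BGP versus NaHPO4 (standard error 0.083, adjusted p = 0.0686) and -0.17 for BGP versus Control (adjusted p = 0.37). Between the phosphates *Psmb8* passed in 2 alternatives, with total counts only (adjusted p = 0.0363) and with limma (adjusted p = 0.0472). *Tap2* had 68.9, 66.8 and 65.8 CPM in Control, 59.8, 59.8 and 61.4 with BGP, and 61.6, 65.6 and 64.7 with NaHPO4. The BGP libraries of *Tap2* were the 3 lowest of the 9. Its log2FC for BGP versus Control was -0.15 (standard error 0.0445, adjusted p = 0.0564). In that comparison *Tap2* passed in 3 alternatives, with adjusted p from 0.0397 to 0.0496. For BGP versus NaHPO4 the log2FC of *Tap2* was -0.08 (edgeR adjusted p = 0.34). *Tap1*, the partner of *Tap2* in the transporter, had 38.0, 42.3 and 36.5 CPM in Control, 34.0, 37.0 and 36.5 with BGP, and 34.8, 39.5 and 42.4 with NaHPO4. All conditions overlapped. The log2FC of *Tap1* against Control was -0.12 with BGP and -0.0018 with NaHPO4. For BGP versus NaHPO4 it was -0.12 (edgeR adjusted p = 0.366).

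Control replicate 2 stood apart in the members outside MHC class I presentation, a pattern noticed after the values were seen. It was the highest Control library in 21 of the 32 tested members (65.6%), against 34.3% of all tested genes. Outside MHC class I presentation it was the highest in 20 of 25 (80.0%), and among the 7 MHC class I members in 1. Among the tested members with a mean below 10 CPM it was the highest in 14 of 17, against 34.4% of all tested genes below that level. Counted over all 9 libraries, it was the highest in 14 of the 39 members (35.9%), against 11.4% of all tested genes. These 14 were *Irf9*, *Dhx58*, *Ifit1*, *Oas1a*, *Oas2*, *Oasl2*, *Mx2*, *Ifi27*, *Ifi44*, *Isg15*, *Usp18*, *Trim25*, *Parp9* and *Gbp3*. The 7 untested members together had 46 counts in this library, compared to 5 and 4 in the other Control libraries and from 13 to 25 in the treated ones. With BGP and NaHPO4, too, replicate 2 was most often the highest outside MHC class I presentation, in 14 and 13 of 25 members (56.0% and 52.0%), against 33.4% and 29.8% of all tested genes. The summed macrophage markers, mostly *Lyz2*, were not higher in Control replicate 2, at 29.2 CPM compared to 32.1 and 29.3 in its companions. Lymphocyte markers were at 0 counts in all 3 Control libraries. The total count of Control replicate 2, 23159816, lay between those of the other Control libraries. Without this library the median log2FC of the members for NaHPO4 versus Control was 0.06 instead of -0.02, and 0 members passed in either direction. The cause of this pattern was not tested.

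**Figure D4:**
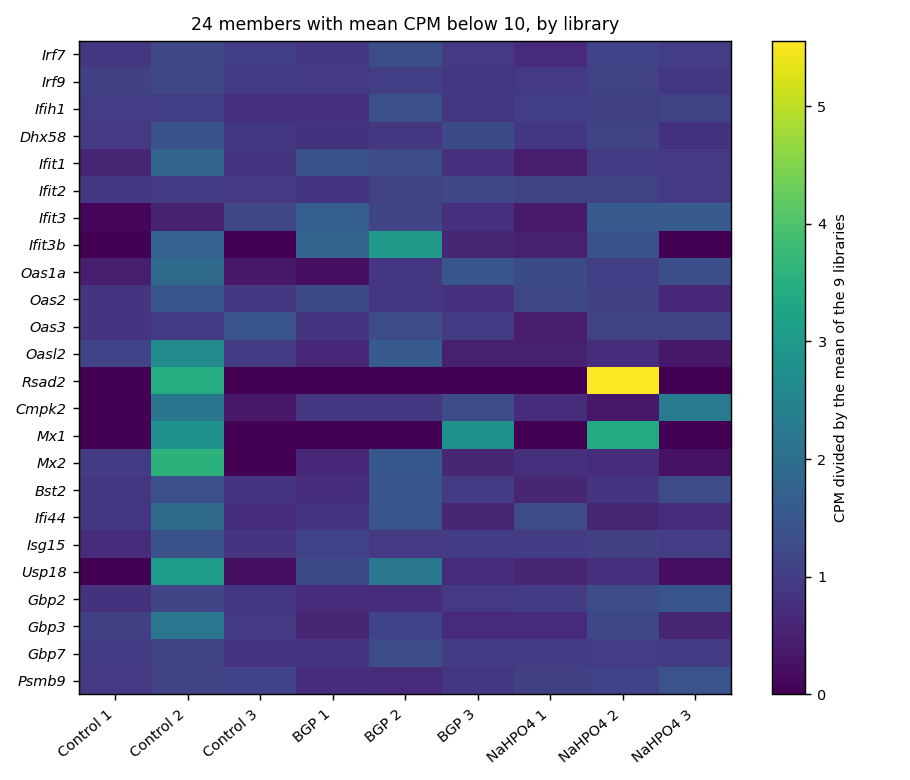
The 24 members with a mean below 10 CPM, each as its CPM divided by the mean of the 9 libraries, with libraries in columns and brighter colours for higher values. The column of Control replicate 2 is bright for *Oasl2*, *Usp18*, *Mx2* and *Gbp3*, and the rows of *Rsad2*, *Mx1* and *Ifit3b* rest on few counts in any library.

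The genes around the members were examined through 118 further genes of the same pathways, of which 80 were tested. None of the 6 negative regulators and none of the 3 tested MHC class II genes, of 8 listed, passed in any comparison. Of the 10 interferon genes listed, 9 had 0 counts in every library, among them *Ifnb1* and *Ifng*, which allows up to 0.106 to 0.140 CPM per library, and the list held 1 count in all. The receptors were present. *Ifnar1*, a chain of the type I receptor, had from 76.1 to 83.7 CPM and log2FC of -0.02 and 0.0089 against Control. *Nlrc5*, the transactivator of MHC class I genes, had from 10.4 to 14.3 CPM and log2FC of 0.22 with BGP (adjusted p = 0.347) and 0.09 with NaHPO4.

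With BGP, 0 of the 80 genes were higher and 1 was lower than in Control by edgeR's test, compared to 5 and 9 at an unadjusted p under 0.05, which 13.4% of all tested genes reached. At an FDR of 0.05, 1.86% of all tested genes were higher and 0.665% were lower. The 1 lower gene was *Tapbp*, or tapasin, which bridges MHC class I to the peptide transporter. It had 131, 133 and 129 CPM in Control and 117, 119 and 122 with BGP, without overlap (log2FC -0.13, adjusted p = 0.0361). Each fit that left out a Control library, BGP replicate 1 or 2, or NaHPO4 replicate 2 lost the call, with an adjusted p of up to 0.194.

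With NaHPO4, 5 of the 80 were higher and 3 were lower than in Control, and 0 were DEGs. The shares of all tested genes were 3.43%, 3.95% and 0.716%. The higher genes were *Stat3*, *Ifitm3*, *Calr*, *Canx* and *Pdia3*. *Calr* and *Pdia3* encode calreticulin and a disulfide isomerase of the endoplasmic reticulum, which belong to the peptide-loading complex and also fold many other glycoproteins. *Calr* had 606, 622 and 622 CPM in Control, 623, 630 and 633 with BGP, and 730, 741 and 775 with NaHPO4 (NaHPO4 versus Control log2FC 0.28, adjusted p = 3.95e-08). *Pdia3* had 517, 552 and 565 CPM in Control and 647, 644 and 626 with NaHPO4 (log2FC 0.23, adjusted p = 5.76e-06). *Canx*, or calnexin, had a log2FC of 0.11 (adjusted p = 0.0406) and was lost in 7 of 17 alternatives. *Stat3*, the STAT protein of the interleukin-6 family, had 158, 155 and 168 CPM in Control, 178, 172 and 173 with BGP, and 183, 186 and 190 with NaHPO4 (NaHPO4 versus Control log2FC 0.21, adjusted p = 9.15e-05).

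The lower genes were *Ifngr1*, *Ifitm1* and *H2-T23*, and 2 interferon-induced transmembrane proteins, *Ifitm1* and *Ifitm3*, moved in opposite directions. *Ifitm1*, which resides at the plasma membrane, had 78.5, 70.1 and 66.9 CPM in Control, 67.8, 61.7 and 66.0 with BGP, and 59.9, 51.5 and 48.6 with NaHPO4. It was lower with NaHPO4 than in Control (log2FC -0.43, standard error 0.0587, adjusted p = 2.33e-06). *Ifitm3*, which blocks virus entry from endosomes, had 81.4, 84.0 and 75.7 CPM in Control, 75.0, 83.8 and 77.5 with BGP, and 87.4, 103 and 102 with NaHPO4. It was higher with NaHPO4 than in Control (log2FC 0.28, standard error 0.0512, adjusted p = 0.000229). *Ifngr1*, the ligand-binding chain of the interferon gamma receptor, fell by 0.16 on the log2 scale (adjusted p = 0.0061), which was lost without Control replicate 1 (adjusted p = 0.108). *H2-T23*, a non-classical MHC class I gene, had a log2FC of -0.22 (adjusted p = 0.0281) and was lost in 5 of 17 alternatives.

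In the direct comparison of the phosphates, 2 of the 80 were higher and 5 were lower with BGP than with NaHPO4. Of all tested genes, 3.33% were higher and 2.05% were lower. *Ifitm1* (log2FC 0.29, adjusted p = 0.00143) and *Ifngr1* (log2FC 0.15, adjusted p = 0.0134) were higher. *Ifitm3* (log2FC -0.31, adjusted p = 8.51e-05), *Calr* (log2FC -0.25, adjusted p = 5.65e-07), *Ifitm2* (log2FC -0.24, adjusted p = 0.000182), *Pdia3* (log2FC -0.21, adjusted p = 5.36e-05) and *Tlr3* (log2FC -0.31, adjusted p = 0.0179) were lower. *Tlr3*, an endosomal sensor of double-stranded RNA, had 14.4, 15.6 and 14.1 CPM in Control, 12.7, 12.7 and 12.9 with BGP, and 15.1, 16.5 and 16.0 with NaHPO4, without overlap between the phosphates, but its call was lost in 5 of 17 alternatives. Of the 20 calls among members and other pathway genes over the 3 comparisons, 10 held in each of the 17 alternatives at an FDR of 0.05, and these belonged to *Stat3*, *Ifitm1*, *Ifitm2*, *Ifitm3*, *Calr* and *Pdia3*, none of them a member.

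**Figure D5:**
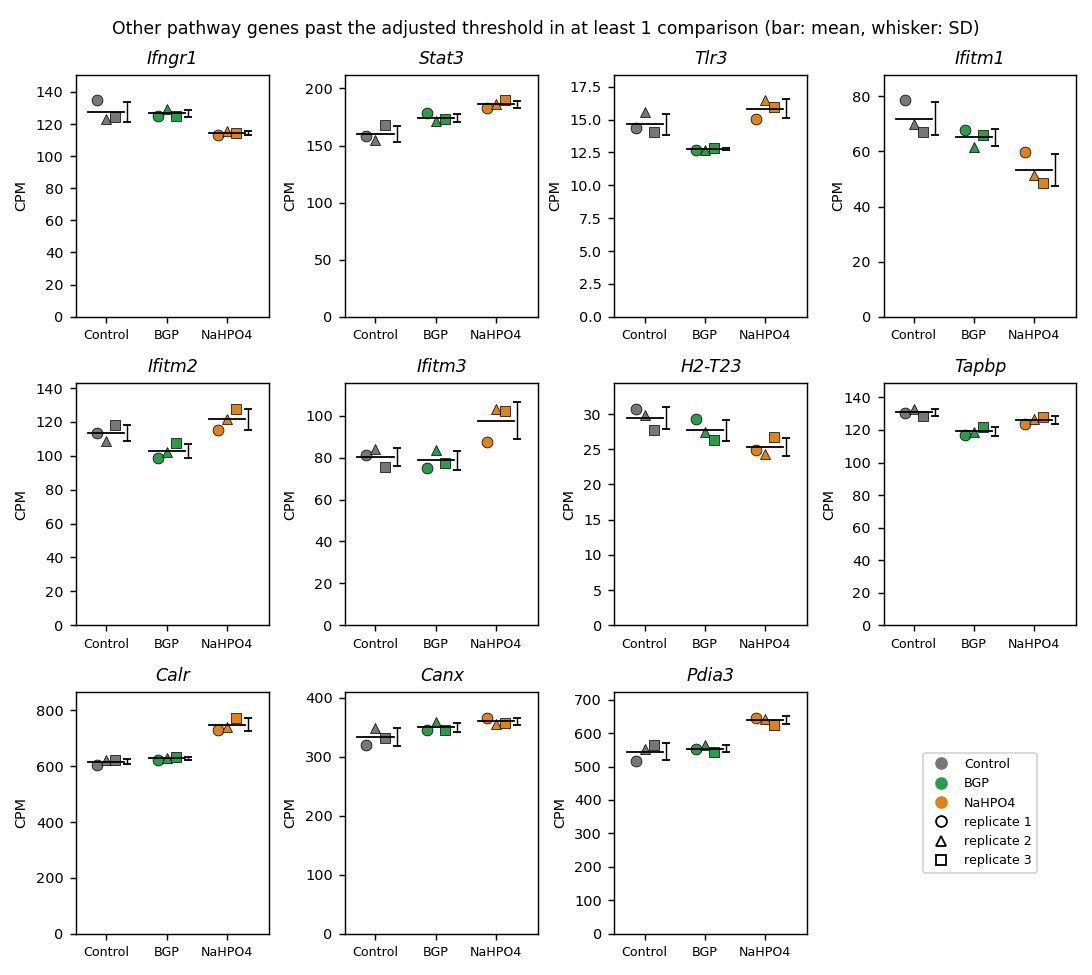
CPM per library of the 11 other pathway genes past the adjusted threshold in at least 1 comparison, with a bar at the mean and a whisker for the SD (n = 3). *Calr*, *Pdia3* and *Ifitm3* are higher and *Ifitm1* and *Ifngr1* lower in the NaHPO4 libraries, and every axis starts at 0.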

How the data were processed

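Poly(A) RNA of 9 libraries was measured, and condition and replicate number came from the sample labels. The authors checked the reads with FastQC, used the AIR software to map pairs of 50-base reads to GRCm39 (Ensembl release 104), and deposited raw, whole-number counts per gene. The aligner, the counting program and its use of strand are not given in the sources used here. The authors also deposited a TMM-scaled signal, which is the counts of a library times 1 factor and was used for 1 alternative.

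The counts were filtered by filterByExpr in edgeR 4.0.16 (count minimum 10) and TMM-scaled. All 9 libraries entered a single fit (glmQLFit) with the condition as the term, and contrasts were tested with glmQLFTest, with Benjamini-Hochberg adjustment over 13679 genes. The study's own limits defined DEGs: FDR below 0.05 with a log2FC beyond 0.5 in either direction. Standard errors came from the quasi-likelihood F statistic, and 95% intervals from the t quantile. With total counts of 21390839 to 28234404, the error covers counting and the spread between the 3 libraries of a condition. This spread was estimated over all 9 libraries and in part from other genes. With 3 libraries against 3, an exact permutation test cannot give a two-sided p below 0.1, so it was not used.

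Alternatives were DESeq2's size factors (RLE), total counts only, no filter, at least 10 counts in every library, a fit of the 2 groups compared, DESeq2 1.42.0, limma 3.58.1 on log2(value + 1) of the TMM-scaled signal, the replicate number as a block, an FDR of 0.01 and each library left out in turn. The edgeR procedure was tested on simulated data, with changes placed only in genes above a mean of 1 CPM, so weaker members were not covered. It recovered 46 of 50 genes at a fold of 1.5, 46 of 50 at a fold of 2, 49 of 50 at a fold of 3 and 50 of 50 at a fold of 4. Beside these recovered genes there were 17 false calls, among 13517 genes tested. As a share of all calls, the false calls were above the main FDR threshold. Calls close to that threshold are therefore less certain than their adjusted p alone shows.

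The members and lists were chosen with earlier results of these data known. Genes named by rule were members past FDR 0.05, *Stat2*, *Irf7*, *Irf9*, *Isg15*, *Ifit1*, *Ifit3*, *Bst2*, *B2m*, *H2-K1*, *H2-D1*, *Tap1*, *Psmb8*, members that failed the filter, up to 6 pathway genes per comparison past FDR 0.05 with the largest log2FC, and *Ifnb1*, *Ifnar1* and *Nlrc5*. The rule also named 1 gene that is not reported here. Other genes were named after their values were seen. Gene positions and exons came from a GENCODE annotation of GRCm39. Promoter sequences came from RefSeq (GRCm38.p6) and were placed in GRCm39 by exact match. Adipocyte and apoptosis markers were also listed. Of 5 adipocyte markers *Fabp4* alone was tested and did not pass, and of 6 apoptosis and p53 genes 1, *Cdkn1a*, was higher under BGP than under NaHPO4 (log2FC 0.11, adjusted p = 0.0452). R 4.3.3, Python 3.11.15, pandas 2.3.3, scipy 1.17.1 and matplotlib 3.10.9 were used.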

Additional observations from a re-analysis of the deposited data

How the results depend on the processing

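The cause of the changes below was not tested unless the setting itself shows it. For BGP versus Control, 1 member was lower in the fit of the 2 groups compared and with limma, and 0 to 1 when a library was left out. Of the other pathway genes 2 were lower without a filter, in the fit of the 2 groups and with the replicate block, 0 at an FDR of 0.01, and 0 to 2 when a library was left out, while 0 to 1 were then higher. For NaHPO4 versus Control, 0 members were higher without a filter, in the fit of the 2 groups, with DESeq2, with the replicate block, at an FDR of 0.01 and in each fit without a library. Lower members and DEGs both numbered 0 with at least 10 counts in every library, which leaves *Oasl2* untested, 0 at an FDR of 0.01, and 0 to 1 when a library was left out. The median log2FC of the members then ranged from -0.0500 to 0.0621, and from -0.0785 to 0.0254 for BGP versus Control and -0.0365 to 0.0339 for BGP versus NaHPO4. For BGP versus NaHPO4, lower members and DEGs both numbered 1 at an FDR of 0.01 and 0 to 2 when a library was left out (0 without BGP replicate 2 or NaHPO4 replicate 3). Higher pathway genes numbered 1 with total counts only, 1 at an FDR of 0.01 and 1 to 2 without a library.

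Over all tested genes the deviations of same-numbered libraries had correlations from -0.0092 to 0.0426 (9 pairs), and not every library correlated best with its own number. The numbers were therefore not taken to pair the libraries in the main fit. Because these correlations cover all tested genes, they cannot show whether the libraries are paired in the members alone. Outside MHC class I presentation, replicate 2 was most often the highest in each condition. With the replicate block the only member call lost was that of *Irf1* (adjusted p = 0.0564), while for *Oasl2* the adjusted p fell from 0.0159 to 0.00366.

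Over the single genes, 1814 values kept direction and side of the threshold, 48 calls weakened, 5 became stronger and 25 uncalled log2FC changed sign. Each of these changes of sign came from leaving out a library. The ranges over these fits for BGP versus Control were -0.0938 to 0.0636 for *Stat2*, -0.205 to 0.129 for *Irf7*, -0.176 to 0.268 for *Ifih1*, -0.341 to 0.108 for *Dhx58*, -0.238 to 0.324 for *Bst2*, -0.0910 to 0.0311 for *Ifi27*, -0.695 to 0.271 for *Ifi44*, -0.120 to 0.221 for *Gbp7* and -0.0964 to 0.0278 for *H2-K1*. For NaHPO4 versus Control they were -0.0333 to 0.0875 for *Ddx58*, -0.322 to 0.0529 for *Dhx58*, -0.747 to 0.115 for *Ifit1*, -0.332 to 0.177 for *Oas2*, -0.844 to 0.102 for *Ifi44* and -0.0669 to 0.0726 for *Tap1*. For BGP versus NaHPO4 they were -0.118 to 0.0387 for *Stat2*, -0.0498 to 0.311 for *Irf7*, -0.359 to 0.0835 for *Ifih1*, -0.0642 to 0.0564 for *Ddx58*, -0.114 to 0.129 for *Ifit2*, -0.0415 to 0.583 for *Bst2*, -0.111 to 0.229 for *Gbp7*, -0.0740 to 0.0502 for *H2-K1* and -0.0393 to 0.0309 for *H2-D1*.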
